A study of Homo sapiens with 40 samples.

Results

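CENP-A peak lists from SW480 cells depleted of HJURP or of DAXX were set side by side, to ask how far the sites of ectopic CENP-A match when the CENP-A chaperone is removed and when an H3.3 chaperone is removed. The members were all merged replicated peaks of the 2 conditions, 940 for HJURP and 952 for DAXX, which make 1892 of the 5748 peaks in the 6 lists of the series. Each list was built from 4 ChIP libraries, each with its own input library. SW480 is an established human colorectal cancer cell line with high endogenous CENP-A and extra copies of the MYC region. The 2 groups carried siHJURP or siDAXX for 72 hours, and their comparison group, which the sample labels call Untreated and the study calls control siRNA, was otherwise handled in the same way. The other lists came from siHIRA (4 ChIP libraries), siHIRA_DAXX (2) and siHIRA_HJURP (2). Chromatin of all groups was digested with MNase for 15 minutes without cross-linking and precipitated with ACA serum, a human serum against centromere proteins, so the peaks rest on a serum and not on an antibody raised to CENP-A alone. The cells were bulk cultures, and siRNA lowers its target without removing it. The labels mark 1 HJURP ChIP library as New and 1 DAXX ChIP library as resent, without saying what that changed.

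CENP-A is the histone H3 variant that marks the centromere and carries the kinetochore. HJURP binds CENP-A with histone H4 and places it at centromeres in G1 phase, and it does so with the help of the Mis18 proteins. DAXX, working with the remodeller ATRX, places the variant H3.3 at telomeres, pericentromeric DNA and other repeats. CENP-A found away from centromeres is called ectopic.

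The 2 groups differ by the RNA that was delivered, so those sequences come first. The HJURP siRNA strand is given with the control siRNA, both as the study lists them, in 5′ to 3′ direction, with overhang bases in lower case.
HJURP siRNA: CUACUGGGCUCAACUGCAAuu
Control siRNA: CAUGUCAUGUUCACAUCUC
The 19 capital bases of the HJURP siRNA matched 3 annotated transcripts, all of HJURP, in an exon on the minus strand at chr2:234749460-234749478 (hg19). The control sequence of 19 bases matched 0 transcripts. The DAXX siRNA is a catalogue product and its sequence is not shown here.

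The kinds of DNA under the peaks are illustrated by 3 peaks from different regions, the widest HJURP peak, which is shared, and 1 of the wider specific peaks of each list. They are examples and stand for no difference between the lists. For each peak, 2 stretches of 150 bases from its central part are printed in hg19, plus strand. They lie apart by the step at which the peak matched itself best, whether or not the peak holds a repeat. A capital marks a base that is the same at the same place in both stretches. The sequence is from the GRCh37 reference, not from reads.
Shared by both lists, chr21:10716251-10716400: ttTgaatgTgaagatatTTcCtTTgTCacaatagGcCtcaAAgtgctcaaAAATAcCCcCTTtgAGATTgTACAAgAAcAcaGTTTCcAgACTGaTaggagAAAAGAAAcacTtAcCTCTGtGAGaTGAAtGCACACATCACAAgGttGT
Shared by both lists, chr21:10716591-10716740: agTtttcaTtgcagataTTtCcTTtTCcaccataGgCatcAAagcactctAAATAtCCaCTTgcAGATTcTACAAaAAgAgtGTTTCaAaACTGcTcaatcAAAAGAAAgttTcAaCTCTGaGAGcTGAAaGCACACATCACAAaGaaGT
HJURP list only, chr12:25906443-25906592: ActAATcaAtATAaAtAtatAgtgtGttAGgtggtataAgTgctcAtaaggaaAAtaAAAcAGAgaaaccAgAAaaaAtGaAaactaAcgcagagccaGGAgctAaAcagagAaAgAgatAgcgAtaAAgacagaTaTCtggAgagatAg
HJURP list only, chr12:25906609-25906758: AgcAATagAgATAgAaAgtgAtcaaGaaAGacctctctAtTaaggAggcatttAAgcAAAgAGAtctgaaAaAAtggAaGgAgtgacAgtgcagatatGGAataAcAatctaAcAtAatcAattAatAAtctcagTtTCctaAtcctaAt
DAXX list only, chr16:32552944-32553093: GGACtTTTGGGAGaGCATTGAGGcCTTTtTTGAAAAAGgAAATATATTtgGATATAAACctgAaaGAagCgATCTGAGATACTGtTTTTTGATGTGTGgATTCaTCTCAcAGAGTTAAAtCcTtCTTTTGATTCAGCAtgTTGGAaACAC
DAXX list only, chr16:32553287-32553436: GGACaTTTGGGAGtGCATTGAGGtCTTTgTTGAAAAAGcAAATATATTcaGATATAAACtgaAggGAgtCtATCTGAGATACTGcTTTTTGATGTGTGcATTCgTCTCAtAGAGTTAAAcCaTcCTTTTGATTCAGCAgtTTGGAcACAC
In these stretches, each shown at its best step, the peak of the DAXX list had 125 of 150 bases the same at a step of 343 bases, the shared peak 85 of 150 at 340 bases and the peak of the HJURP list 49 of 150 at 166 bases. Over the central 1000 bp the best match was lower, at 54.95% for the DAXX peak, 46.99% for the shared peak and 30.1% for the HJURP peak. The median over stretches of 1000 bp across the genome was 29.3%, so the step of the HJURP peak is not shown to be a repeat. Of the 3 peaks shown, only that of the DAXX list reached the 50% that is counted as periodic below. The value of the shared peak is from the center of the HJURP peak. The DAXX peak that overlaps it, chr21:10708892-10730755, has another center and a best match of 53.6%.

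The number of ectopic peaks was nearly the same in both lists, and the DAXX list covered more bases. A peak was counted as ectopic when it had no base in the centromere bands of hg19, and coverage was the sum of peak widths in kilobases (kb). The HJURP list held 763 ectopic peaks and 953.5 kb, and the DAXX list held 759 ectopic peaks and 1123.7 kb, a coverage ratio of 0.849. The control list held 289 ectopic peaks and 396.9 kb. Each condition was deposited as 1 merged list with no score and no replicate kept apart, so none of these values has a replicate error and no difference could be tested. The lists carry no read depth. The study gives the depth of each library and repeated its coverage comparison at equal depth, and neither was analysed here, so the part of depth in these values was not tested.

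The extra DAXX coverage lay in wide peaks. The DAXX list had 29 ectopic peaks over 5000 bp that held 291.9 kb, and the HJURP list had 18 that held 141.1 kb. Of the 170.2 kb by which the DAXX list was larger, 150.8 kb came from these wide peaks, and over peaks of up to 5000 bp the coverage ratio was 0.977. Peaks over 5000 bp made up 14.8% of ectopic coverage in the HJURP list, 25.97% in the DAXX list, 27.1% in the control list and 11.4% in the HIRA list. The median ectopic width was 828 bp for HJURP and 902 bp for DAXX.

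Most ectopic peaks were found in both lists. A peak was shared when it had at least 1 base in a peak of the other list. For HJURP 603 of 763 peaks were shared, 79.0% (Wilson 95% interval 76.0 to 81.8%, counting error only). For DAXX 555 of 759 peaks were shared, 73.1% (69.9 to 76.2%). The bases common to both came to 793.6 kb, which was 83.2% of HJURP coverage and 70.6% of DAXX coverage. Since the common bases are the same on both sides, these base shares differ only as the coverage of the lists does. Over all deposited peaks, those in centromere bands included, 19.4% of HJURP peaks and 27.4% of DAXX peaks had no base in the other list. For ectopic peaks alone these shares were 20.97% and 26.9%. Ectopic peaks make up 81.2% of the HJURP list and 79.7% of the DAXX list, so their shares must lie near those over all peaks. For centromere band peaks alone the shares were 12.4% and 29.5%. The union of the ectopic lists formed 849 regions, of which 485 held peaks of both.

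A peak missing from a list need not have been missing from the libraries behind it, which the merged lists cannot show. Merged peaks entered a list when 3 or more replicates had a peak there, so a peak called specific here may have been called in 1 or 2 replicates of the other condition. The 1-base rule cut few peaks closely, since no shared peak had fewer than 54 bases in the peaks of the other list. Just outside the rule, the nearest unshared HJURP peak lay 33 bases from a DAXX peak and the nearest unshared DAXX peak 11 bases from an HJURP peak. Of 160 HJURP-specific peaks, 49 lay within 1 kb of a DAXX peak, and of 204 DAXX-specific peaks, 74 lay within 1 kb of an HJURP peak.

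Sharing rose with peak width in both lists. Of HJURP ectopic peaks under 500 bp, 114 of 184 were shared (62.0%, interval 54.8 to 68.7%), and of DAXX peaks under 500 bp, 82 of 182 (45.1%, 38.0 to 52.3%). From 500 bp to under 1000 bp the shares were 74.8% for HJURP and 161 of 230 for DAXX, and from 1000 bp to under 2000 bp they were 87.7% and 190 of 221. At 2000 bp or more, 118 of 118 HJURP peaks and all but 4 of the DAXX peaks (96.8%) were shared. The median width was 954 bp for shared and 534.5 bp for specific HJURP peaks, and 1129 bp for shared and 511.5 bp for specific DAXX peaks. The plot of sharing by width shows that the widest class reached 100% in both lists on chromosome 8 and in the HJURP list elsewhere. A wide peak has more bases with which to meet another, so this order is a description of the rule as well as of the peaks.

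**Figure D1:**
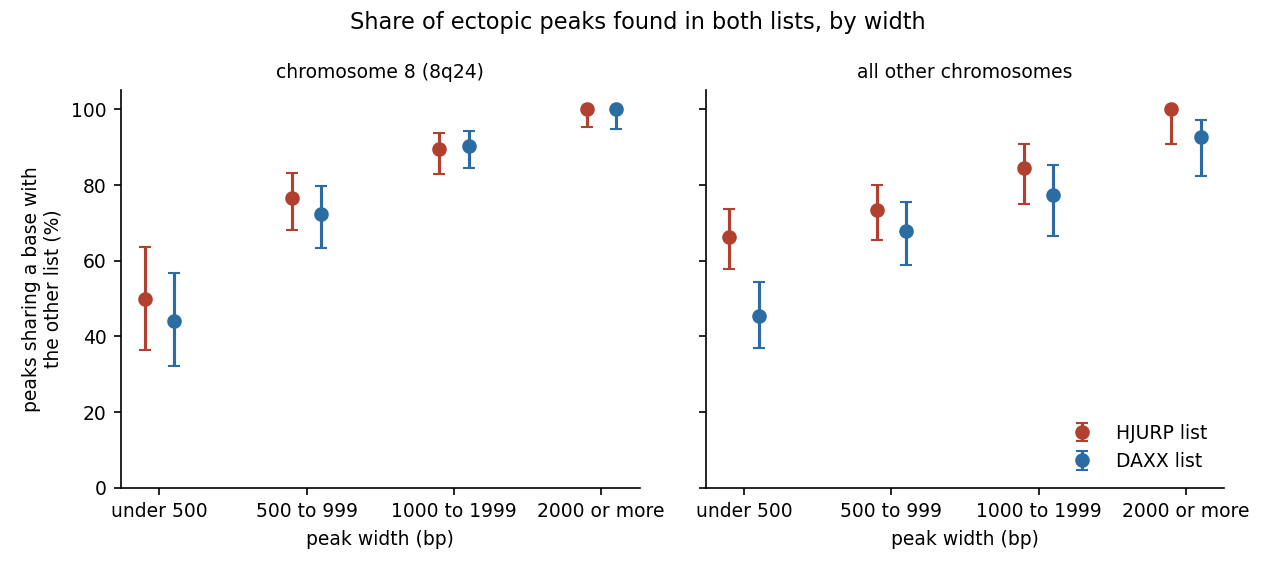
Percent of ectopic peaks with at least 1 base in the other list (y axis) by peak width in bp (x axis), for the HJURP list (red) and the DAXX list (blue), on chromosome 8 (left) and on all other chromosomes (right), with bars for Wilson 95% intervals. Off chromosome 8, peaks under 500 bp were shared in 66.2% of cases for HJURP and 45.5% for DAXX, and those of 2000 bp or more in 100% and 92.6%.

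Where 1 HJURP peak met 1 DAXX peak, their widths were similar. There were 369 such ectopic pairs, and the DAXX peak was the wider in 221, the HJURP peak in 147, with 1 pair equal. The median ratio of DAXX width to HJURP width was 1.04 (quartiles 0.936 and 1.24). On 8q24 the median ratio over 194 pairs was 1.00, and near centromeres it was 1.09 over 143 pairs. More complex matches leaned to DAXX, in that 20 DAXX peaks but 6 HJURP peaks touched 3 or more peaks of the other list. The largest width difference among these pairs was on chromosome 16, where a DAXX peak of 11949 bp at chr16:33967856-33979804 enclosed an HJURP peak of 6560 bp. In the other direction it was on chromosome 8, where an HJURP peak of 2046 bp at chr8:128155376-128157421, in the long non-coding RNA genes PCAT1 and CASC19, enclosed a DAXX peak of 580 bp.

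Coverage by chromosome placed the lists side by side. Ectopic peaks lay on 20 chromosomes, on 19 of them in both lists. The DAXX list covered more on 15 chromosomes and the HJURP list on 5. Chromosomes 7, 16 and 21 together gave 124.9 kb of the 170.2 kb by which DAXX was larger, which is 73.4%. On chromosome 16 the HJURP list covered 49.3 kb and the DAXX list 104.4 kb. On chromosome 21 the values were 131.5 kb in 85 HJURP peaks and 172.6 kb in 50 DAXX peaks. On chromosome 7 they were 41.0 kb and 69.8 kb. Chromosome 12 was among those where HJURP covered more, with 20.8 kb against 16.8 kb. When peaks of either list within 1 Mb were joined, 15 domains held at least 20 peaks, and in 13 of them the DAXX list covered more.

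**Figure D2:**
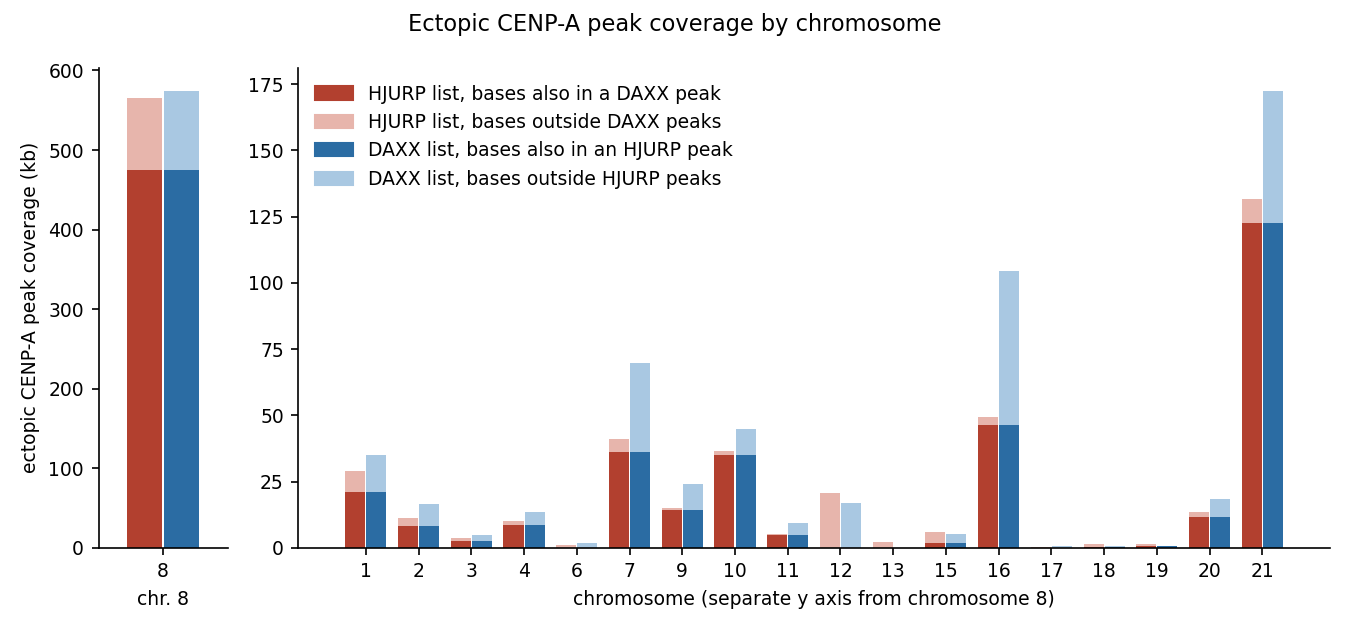
Ectopic CENP-A peak coverage in kb (y axis) by chromosome (x axis, autosomes with a peak), for the HJURP list (red) and the DAXX list (blue), with bases also in the other list in dark and all other bases in light color, and chromosome 8 on its own y axis. On chromosome 12 nearly the whole of both bars is light, and on chromosomes 7, 16 and 21 the light part of the DAXX bar is the larger.

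Peaks of the lists covered close to equal numbers of bases in band 8q24. This region of the long arm of chromosome 8 carries the oncogene MYC and a series of long non-coding RNA genes. The HJURP list had 372 peaks and 565.8 kb there, and the DAXX list had 389 peaks and 574.7 kb. These were 59.3% and 51.1% of all ectopic coverage. The control list had 81 peaks and 84.5 kb in the same stretch of 2.93 Mb. Of the HJURP peaks 307 were shared (82.5%, interval 78.3 to 86.0%), and of the DAXX peaks 311 (79.9%, 75.7 to 83.6%), with 474.6 kb in common. DAXX peaks covered 19.6% of the bases of the domain and HJURP peaks 19.3%. Some shorter domains near centromeres were covered more densely, such as chr16:46385768-46435606 with 59.2% for DAXX and 57.8% for HJURP. The study counted more copies of 8q24 per cell after HJURP siRNA than after control siRNA. The part of copy number in these values was not tested.

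Along 8q24 the DAXX list covered more at the start of the domain and the HJURP list more in most windows from 128 Mb on, with no replicate error on either value. From 126.5 to 127 Mb the HJURP list covered 43.0 kb and the DAXX list 49.2 kb. From 127 to 127.5 Mb the values were 65.1 kb and 76.5 kb, and from 127.5 to 128 Mb they were 35.6 kb and 47.2 kb. From 128 to 128.5 Mb the values were 240.3 kb for HJURP and 227.4 kb for DAXX, and from 129 to 129.5 Mb they were 124.7 kb and 119.2 kb. The window around MYC, from 128.5 to 129 Mb, held the fewest peaks, 8 in each list. In bins of 25 kb, 81 bins held a peak of either list and 69 held peaks of both, with more bases from HJURP in 35 and from DAXX in 46.

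**Figure D3:**
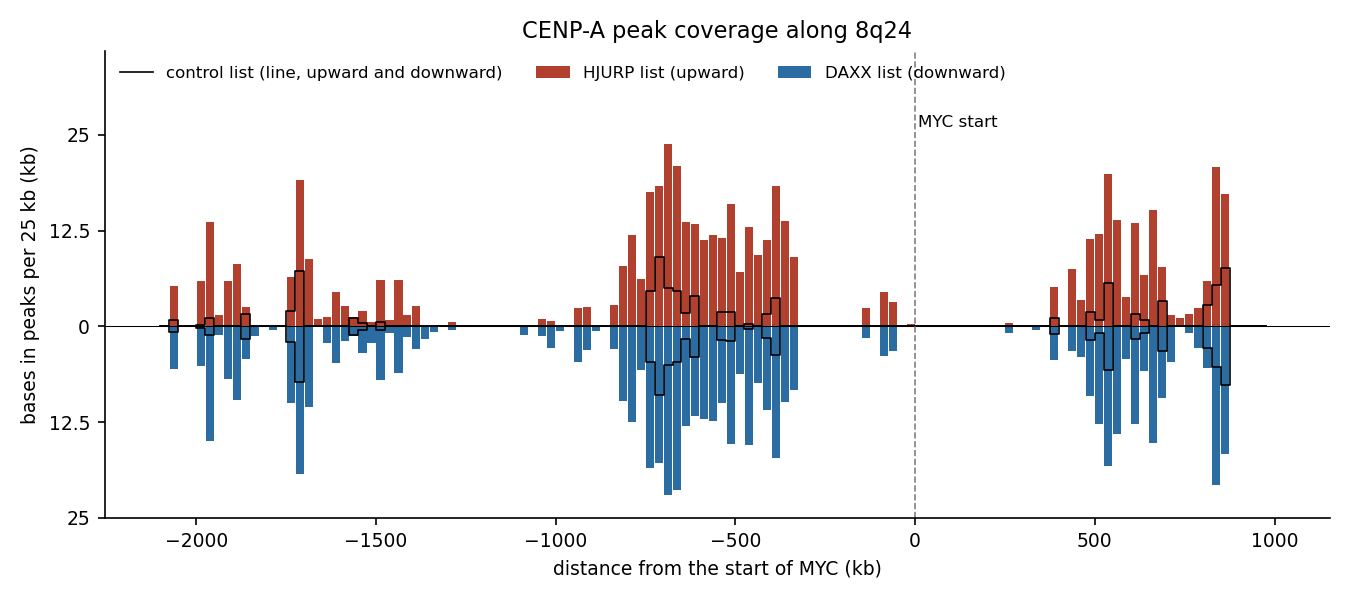
Bases in CENP-A peaks per 25 kb (y axis, kb) by distance from the start of MYC (x axis, kb) for the HJURP list (red, upward), the DAXX list (blue, downward) and the control list (black line, mirrored). Both lists peaked in the bin that starts 700 kb before MYC, at 23.9 kb for HJURP and 22.0 kb for DAXX, and left the bins around MYC almost empty.

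MYC, the transcription factor gene, held 0 peaks in every list. Its nearest ectopic peak was 24.7 kb away in the HJURP list and 69.7 kb away in the DAXX list. The HJURP value rests on 1 specific peak of 0.351 kb in the long non-coding RNA gene CASC11, where no other list held a peak. The next HJURP peak on that side ended at chr8:128676387. Within 1 Mb there were 282 HJURP and 294 DAXX peaks. PVT1, the long non-coding RNA gene next to MYC, held 11 HJURP peaks with 13.1 kb and 7 DAXX peaks with 8.95 kb. CASC8, a long non-coding RNA gene upstream of MYC, held 38 HJURP peaks with 58.2 kb and 40 DAXX peaks with 49.8 kb. POU5F1B, a retrogene of the pluripotency factor gene POU5F1, held 50.1 kb of HJURP and 43.3 kb of DAXX peaks within its annotated span. PCAT1, whose annotation spans 863 kb and takes in several of these genes, held 275.9 kb of HJURP and 274.6 kb of DAXX peaks. CASC19 also held more HJURP bases, 83.4 kb against 80.6 kb. The genes with the largest difference towards DAXX lay at the other end of the band. LINC00861 held 45 HJURP peaks with 59.5 kb and 48 DAXX peaks with 73.5 kb, and LINC02964 held 49.5 kb and 59.3 kb. The spans of these genes overlap, so the same peak can be counted in several of them.

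The specific peaks of 8q24 were narrow and close to peaks of the other list. The widest that HJURP held alone was 1941 bp, at chr8:129181623-129183563 in an intron of PVT1, 1.93 kb from the next DAXX peak, and it had no base in the 4 other lists. The next were 1836 bp at chr8:127071866-127073701 in an intron of LINC00861 and 1503 bp at chr8:129241391-129242893 between genes. Both also occurred in the HIRA_HJURP list, and the peak of 1503 bp in the HIRA list too. The widest that DAXX held alone was 1899 bp, at chr8:126794408-126796306 in an intron of LINC02964, 0.682 kb from the next HJURP peak. It was followed by 1428 bp at chr8:127246117-127247544, in an intron of LINC00861, and 1403 bp at chr8:126888074-126889476, which touched an exon where LINC02964 and LINC00861 overlap. The DAXX-specific peaks of 1899 and 1403 bp also occurred in the HIRA and HIRA_HJURP lists, and that of 1428 bp in none of the 4 other lists. The pair with most bases in common was an HJURP peak of 11673 bp at chr8:128037733-128049405 in PCAT1, with a DAXX peak of 9592 bp lying wholly within it. Of the specific peaks here, 33 of 65 for HJURP and 39 of 78 for DAXX were within 1 kb of a peak of the other list.

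The short arm of chromosome 12 held a cluster of narrow peaks in both lists, with almost no base in common. The cluster was singled out after its values were seen. It spanned chr12:21980776-27452014, a stretch of 5.47 Mb, and held 32 HJURP peaks with 19.96 kb and 23 DAXX peaks with 16.4 kb. Only 1 pair of peaks touched, by 54 bases, at chr12:25682148-25682776 in the HJURP list and chr12:25682723-25683486 in the DAXX list. The shares were thus 3.12% of HJURP peaks (interval 0.554 to 15.7%) and 4.35% of DAXX peaks (0.772 to 20.99%), where the lists as wholes shared 79.0% and 73.1%. The peaks were spread thinly. They covered 0.365% of the stretch in the HJURP list, compared with 19.3% on 8q24, and the median distance from an HJURP-specific peak to the next DAXX peak was 93.9 kb compared with 0.947 kb on 8q24. The cluster gave 31 of the 160 HJURP-specific and 22 of the 204 DAXX-specific ectopic peaks.

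No peak of the control list lay in this stretch, and every knockdown list had some. The HIRA list had 60 peaks there, the HIRA_DAXX list 22 and the HIRA_HJURP list 19. Of the 32 HJURP peaks 11 were met by a HIRA peak (34.4%, interval 20.4 to 51.7%), and of the 23 DAXX peaks 3 were (13.0%, 4.54 to 32.1%). The HIRA_HJURP list met 1 HJURP peak and 0 DAXX peaks, and the HIRA_DAXX list met 3 HJURP peaks and 1 DAXX peak. All 5 knockdown lists thus had peaks in the stretch, most of them at positions of their own. The widest HJURP-specific peak outside chromosome 8 lay here, at chr12:25905569-25907316 with 1748 bp, between genes, and 1185 of its bases were in a HIRA peak.

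**Figure D4:**
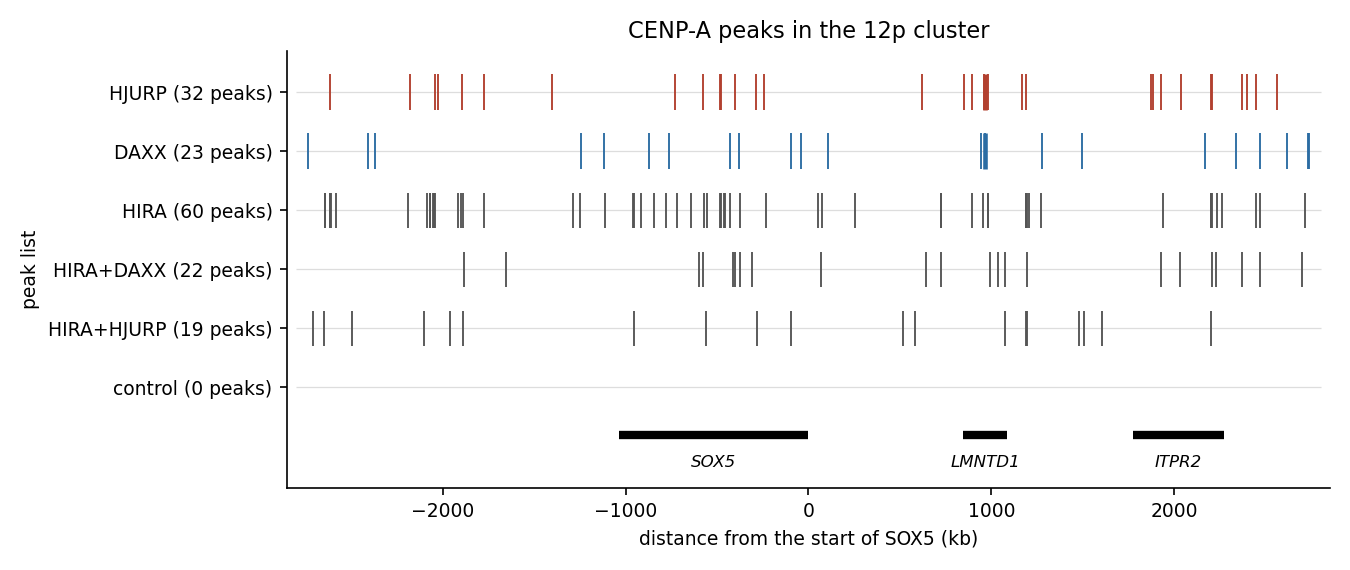
Position of CENP-A peaks (ticks, at peak centers) along the 12p cluster as distance from the start of SOX5 (x axis, kb) in the 6 lists (rows, with the number of peaks), with black bars for 3 genes. The HJURP and DAXX rows cover the same stretch with different ticks, the thick tick in each marks the 1 pair that shares bases, and the control row is empty.

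Within the cluster, 14 protein-coding genes held a peak of either list, 10 for HJURP, 8 for DAXX and 4 for both. SOX5, a transcription factor gene of the SOX family, held 7 HJURP peaks and 6 DAXX peaks, and none of these shared a base. ITPR2, which encodes a calcium channel of the endoplasmic reticulum, held 6 HJURP peaks with 3.60 kb and 1 DAXX peak with 0.298 kb. LMNTD1, which encodes a protein with a lamin tail domain, held 5 and 3, and ST8SIA1, a sialyltransferase gene, held 1 and 2. Genes with HJURP peaks alone were C2CD5, ETNK1, DNAI7, INTS13, FGFR1OP2 and TM7SF3, and genes with DAXX peaks alone were ABCC9, RASSF8, MED21 and STK38L. Of the specific peaks, 25 of 31 for HJURP (80.6%, interval 63.7 to 90.8%) and 16 of 22 for DAXX (72.7%, 51.8 to 86.8%) lay in protein-coding genes. Such genes make up 60.8% of the bases of the stretch, which is inside the DAXX interval and below the HJURP interval. The first 2 shares count peaks and the last counts bases, so they are not the same measure.

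Ectopic peaks no more than 5 Mb from an assembly gap at the centromere, here called pericentromeric, carried most of the difference in coverage. The HJURP list had 298 such ectopic peaks with 329.1 kb and the DAXX list had 291 with 492.6 kb. Of HJURP peaks 256 were shared (85.9%, interval 81.5 to 89.4%) and of DAXX peaks 207 (71.1%, 65.7 to 76.0%). By bases, 89.5% of HJURP and 59.8% of DAXX coverage was common. DAXX-specific peaks held 86.0 kb and HJURP-specific peaks 23.9 kb.

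Single wide peaks on chromosomes 7, 16 and 21 made this visible. The widest DAXX-specific peak, chr16:32543593-32562295 with 18703 bp, lay 14.96 kb from the next HJURP peak, while the control list held 13139 and the HIRA list 13764 of its bases. The second, chr16:34003271-34018247 with 14977 bp, had 7664 of its bases in the control list. The third, chr16:32515332-32518707 with 3376 bp, was met in the HIRA list. The widest DAXX peak of all, chr7:61867627-61898284 with 30658 bp, spanned 4 HJURP peaks that covered 12111 of its bases, while the control list covered 22729. On chromosome 21 the DAXX peak chr21:10842562-10856943 of 14382 bp spanned 9 HJURP peaks that covered 12081 bases, so there the lists differed in how the stretch was divided more than in how much was covered. The HJURP list thus covered fewer bases than the control list of the first 3 peaks over 10 kb named here, and more on chromosome 21, where the control list covered 4752. No gene is annotated in any of them. They lie in repeated DNA, where a mapping quality filter removes reads, and its part in the result was not tested. The best match at the alpha satellite steps described below was 54.95%, 70.2% and 48.9% for the chromosome 16 peaks in the order named. It was 46.3% for the chromosome 7 peak and 59.4% for the chromosome 21 peak. The median over DAXX windows in centromere bands was 50.7%. Ectopic here means outside those bands, so satellite DNA near a centromere can count as ectopic. The part of such DNA in the extra DAXX coverage was not tested.

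The HJURP-specific pericentromeric peaks were narrow. Their widest was 1218 bp, at chr15:20857779-20858996, 0.327 kb from a DAXX peak and in no other list. Away from these regions, an HJURP-specific peak of 1417 bp at chr1:21348188-21349604, in an intron of the translation factor gene EIF4G3, had all of its bases in control and HIRA peaks. On chromosome 13 the HJURP list held 4 peaks, all in the long non-coding RNA gene ENSG00000273550, and the DAXX list held 0. The same gene held 4 peaks of the HIRA list, 1 of the control list and 1 of the HIRA_HJURP list. On the remaining arms, 39 of 61 HJURP peaks (63.9%) and 36 of 56 DAXX peaks (64.3%) were shared. They included DHX32, a helicase gene on chromosome 10, with 5 HJURP and 6 DAXX peaks, and ZNF717, a zinc finger gene on chromosome 3, with 8 and 7.

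Inside the centromere bands, where HJURP places CENP-A, the HJURP list also covered less. It held 177 peaks with 171.9 kb, and the DAXX list held 193 peaks with 262.0 kb, a ratio of 0.656, with 155.8 kb in the control list. Of HJURP peaks 155 were shared (87.6%, interval 81.9 to 91.6%) and of DAXX peaks 136 (70.5%, 63.7 to 76.5%). Peaks over 5000 bp again made up most of the difference, 74.5 of 90.1 kb. The widest was a DAXX peak of 27995 bp at chr7:61532456-61560450 that spanned 4 HJURP peaks with 12986 of its bases, while the control list covered 22162. On chromosome 19 a DAXX peak of 12484 bp at chr19:24555218-24567701 spanned 4 HJURP peaks with 9377 bases, and the control list had none of it. The assembly has gaps in place of most centromere repeats, so these peaks sample the edges of centromeres.

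An ectopic peak of either list lay in 99 genes, 81 for HJURP, 82 for DAXX and 64 for both. Of 36 long non-coding RNA genes 28 were common, and of 36 protein-coding genes 16 were common, with 9 held by HJURP alone and 11 by DAXX alone, and of the 14 protein-coding genes of the 12p cluster 4 were common. Of HJURP-specific peaks 24.4% (interval 18.4 to 31.6%) lay in protein-coding genes and of shared HJURP peaks 8.62% (6.64 to 11.1%). For DAXX the shares were 14.7% (10.5 to 20.2%) and 10.1% (7.85 to 12.9%). Each of these lay below the 45.7% of sequenced genome bases in protein-coding genes, and in the 8q24 domain such genes make up 3.7995% of bases. The 12p cluster supplied 25 of the 39 HJURP-specific and 16 of the 30 DAXX-specific peaks in protein-coding genes. Elsewhere the difference was not seen in every region: on 8q24, 4 of 65 specific and 25 of 307 shared HJURP peaks and 1 of 78 specific and 30 of 311 shared DAXX peaks lay in such genes. Peaks within 2 kb of a protein-coding start numbered 8 for HJURP and 6 for DAXX. The share of the genome that near to such a start was not computed, so these counts are not read as few or many. Among genes off chromosome 8, the largest differences towards DAXX were in PDE4DIP, a centrosome and Golgi scaffold gene, with its overlapping pseudogene PDE4DIPP2 (3.27 kb for HJURP and 6.92 kb for DAXX), and in the pseudogene FRG1JP (0.831 kb and 3.87 kb).

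No peak of either list lay in the centromere and H3.3 assembly genes CENPA, HJURP, DAXX, HIRA, ATRX, MIS18A, OIP5, CENPC, CENPB, NDC80, H3-3A and H3-3B. A peak list cannot show how far the targeted protein was depleted, so the labels were not checked by these data.

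Sequence features divided the ectopic peaks by region more than by list. In the central 1000 bp of each peak, the sequence was compared with itself at steps of 165 to 177 and 335 to 350 bases, near the length of the alpha satellite monomer and of a pair of monomers, and a match of at least 50% was counted as periodic. Of pericentromeric peaks 118 of 297 HJURP windows (39.7%) and 104 of 289 DAXX windows (35.99%) were periodic, and in centromere bands 52.9% and 52.6%. In the MYC region periodic windows were 0 of 372 and 0 of 389 (Wilson upper bounds 1.02% and 0.978%), and in the 12p cluster 0 of 32 and 0 of 23 (10.7% and 14.3%). Over all tiles of the genome of the same length the share was 0.275%. A share of 0 at these counts cannot be told apart from the share over the genome.

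The CENP-B box, the site bound by CENP-B in alpha satellite, was searched as TTCGNNNNANNCGGG on both strands. It occurred in 74 of 174 HJURP windows (42.5%) and 73 of 190 DAXX windows (38.4%) of the centromere bands, in 14.5% and 13.8% of pericentromeric windows, with 0.0536% over genome tiles. In the bands, 62 of 133 shared DAXX windows (46.6%, interval 38.4 to 55.1%) and 11 of 57 DAXX-specific windows (19.3%, 11.1 to 31.3%) held it, and for HJURP 44.1% of shared (36.4 to 52.0%) and 31.8% of specific windows (16.4 to 52.7%). In pericentromeric windows it was in 17.1% of shared and 5.95% of specific DAXX windows, and in 14.1% of shared and 16.7% of specific HJURP windows.

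GGAAT in at least 2 tandem copies, the unit of satellites II and III, occurred in 32.7% and 31.8% of pericentromeric windows and 0.439% of genome tiles. On 8q24 it was in 2 HJURP and 3 DAXX windows, and the CENP-B box was in 0. Median GC content of ectopic windows was 37% for HJURP and 36.9% for DAXX, and 39.9% over genome tiles.

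The other lists, which took no part in sorting the peaks, each held a larger share of the shared peaks than of the specific ones. Of the 603 shared HJURP peaks 213 were in the control list (35.3%, interval 31.6 to 39.2%), 359 in the HIRA list (59.5%) and 500 in the HIRA_HJURP list (82.9%, 79.7 to 85.7%). Of the 160 HJURP-specific peaks 5 were in the control list (3.12%, 1.34 to 7.11%), 40 in the HIRA list and 37 in the HIRA_HJURP list (23.1%, 17.3 to 30.2%). Of the 204 DAXX-specific peaks 12 were in the control list (5.88%, 3.40 to 10.0%), 66 in the HIRA list (32.4%) and 48 in the HIRA_DAXX list (23.5%, 18.2 to 29.8%). Peaks in none of the 4 other lists numbered 92 of 160 for HJURP (57.5%, 49.8 to 64.9%), 92 of 204 for DAXX (45.1%, 38.4 to 52.0%) and 64 of 603 for shared HJURP peaks (10.6%, 8.40 to 13.3%).

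Specific peaks of both lists were met more often by the HIRA_HJURP list than by the HIRA_DAXX list. HJURP-specific peaks were met by the HIRA_HJURP list in 23.1% and by the HIRA_DAXX list in 8.75% (interval 5.28 to 14.2%). DAXX-specific peaks were met by the HIRA_HJURP list in 40.7% (34.2 to 47.5%), which is above their 23.5% in the HIRA_DAXX list. The HIRA_HJURP list is the larger, with 1205 ectopic peaks to 759, and the part of list size in both results was not tested. Within width classes the gap between shared and specific peaks varied. Among HJURP peaks of 500 bp to under 1000 bp, 75.6% of shared (interval 69.1 to 81.2%) and 16.9% of specific peaks (9.72 to 27.8%) were in the HIRA_HJURP list, and among those of 1000 bp or more they were 92.2% and 9 of 25. Among DAXX peaks of 1000 bp or more, the HIRA list met 64.1% of shared (58.6 to 69.2%) and 62.9% of specific peaks (46.3 to 76.8%). These shares depend on the width filter and the overlap rule. With at least 50% of a peak to be covered, 11.4% of HJURP-specific peaks were in the HIRA_HJURP list and 10.04% of DAXX-specific peaks in the HIRA_DAXX list. With only peaks of at least 500 bp in every list, a filter above the median width of both double knockdown lists, 1.83% of HJURP-specific peaks were in the HIRA_HJURP list and 5.88% of DAXX-specific peaks in the HIRA_DAXX list. The 2 double knockdown lists came from 2 libraries each and hold narrower peaks, with ectopic medians of 285 and 293 bp.

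**Figure D5:**
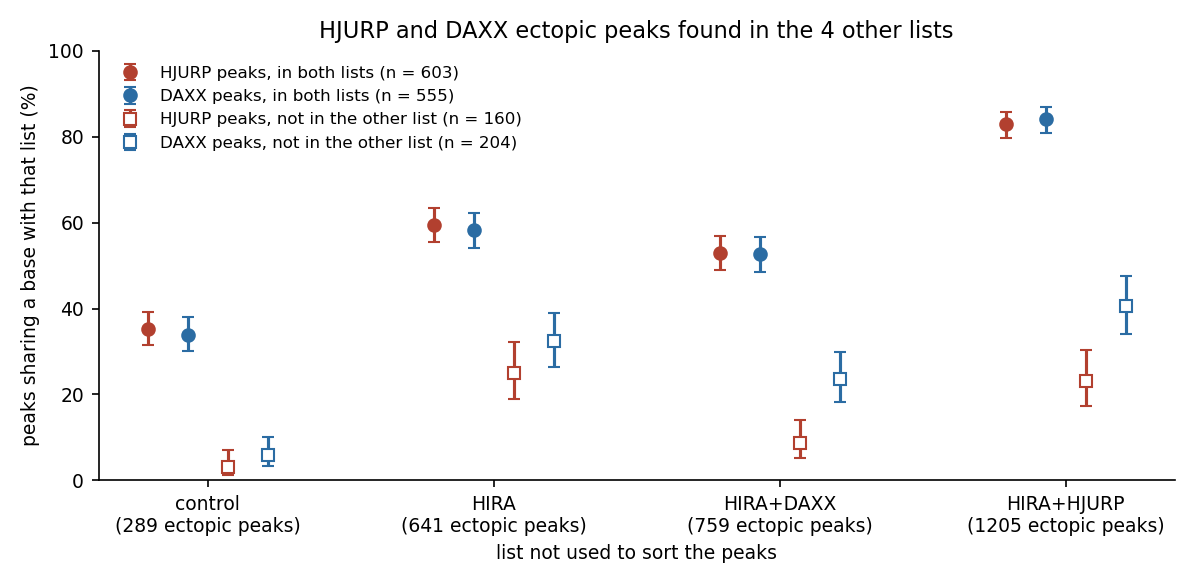
Percent of ectopic peaks with a base in each list not used to sort them (y axis), for the 4 other lists (x axis, with their number of ectopic peaks), with shared peaks as filled circles and specific peaks as open squares, HJURP in red and DAXX in blue, and bars for Wilson 95% intervals. Shared peaks lie above specific peaks in each of the 4 lists, and DAXX-specific peaks were met by the HIRA_HJURP list in 40.7% compared with 23.1% of HJURP-specific peaks.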

How the data were processed

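Reads were trimmed (Trimmomatic) and mapped to hg19 (Bowtie2 2.2.6) by the authors, who kept alignments of mapping quality 10 or more, called peaks with MACS at default settings against each input, merged replicates with bedtools and kept merged peaks that overlapped peaks of at least 3 replicates. The rule for the conditions with 2 replicates is not given in the sources used here. The methods and labels give 4 replicates for HJURP and DAXX and a figure legend gives 3, and some replicates were read paired-end and others single-end. The deposited files hold peak starts and ends (genome positions in bases) and were used in no other way. The comparisons have no test, and shares have Wilson 95% intervals that cover counting error only. The lists give no read depth, and the depths that the study lists were not used here.

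Overlaps, widths and sequence features were computed in Python 3.11.15 with numpy 2.4.6, scipy 1.17.1 and pysam 0.24.0, and figures drawn with matplotlib 3.10.9. Overlap code was tested on simulated data (200 of 200 pairs of lists right). No band file was used, so the hg19 centromere bands rest on general knowledge, and the alternative boundary was the run of at least 2 Mb of N in the GRCh37 reference. Genes are from GENCODE release 44 lifted to GRCh37. Columns of other samples left unused numbered 0. Regions and genes named were the 3 widest specific peaks of each list on and off chromosome 8, the 3 pairs with most common bases on and off chromosome 8, the 3 pairs with the largest width difference each way, the 5 genes with the largest difference in peak bases each way, 5 genes of the MYC region and a list of chaperone and centromere genes, of which some items are not reported here. Other regions and genes, such as the 12p cluster and its genes, DHX32 and ZNF717, were chosen after their values were seen. Alternatives changed the centromere boundary, the overlap rule, the width filter and peak merging, or left out chromosome 8, and those without chromosome 12 or without the widest 1% of peaks were chosen after seeing the data. The members, lists and rules were chosen with earlier results of these data known.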

Additional observations from a re-analysis of the deposited data

How the results depend on the processing

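In 8 results under 9 alternatives, 64 values were set beside their main values. A ratio was called moved when it changed by more than a factor of 1.5, and reversed when it crossed 1. A share was called moved when it left the Wilson interval of its main value, with peaks as the count for base shares too. By these limits 43 values stayed within them, 18 moved and 3 reversed, so a value within the limits can still have changed. The coverage ratio stayed between 0.7061 and 0.8888 in the settings tried, and the share of peaks in the other list was higher for HJURP than for DAXX in 10 of 10 settings. All settings reuse the same lists, so they are not independent of each other. Several HJURP peaks inside 1 wide DAXX peak each count as shared, and the part of this in the peak shares was not tested. The ratio between the base shares of the lists is the coverage ratio and adds nothing to it, while their level depends on the common bases. The ratio of ectopic peak numbers, 1.005, fell to 0.9874 over all deposited peaks, to 0.9874 with assembly gaps as the boundary and to 0.9932 without chromosome 12. The share of HJURP peaks in the DAXX list, 79.03%, became 74.46% with peaks within 1000 bp merged, 85.45% when a gap of up to 1000 bp counted as shared, 82.47% without chromosome 12, 75.7% without chromosome 8 and 75.89% without the widest 1% of peaks. The share of DAXX peaks in the HJURP list, 73.12%, became 67.19% when at least 50% of a peak had to be covered, 76.43% for peaks of at least 500 bp, 82.87% with the 1000 bp gap and 65.95% without chromosome 8. By bases, the DAXX share became 58.1% without chromosome 8 and the HJURP share 77.07% without the widest 1%. HJURP-specific peaks in the HIRA_HJURP list, 23.12%, became 11.43% under the 50% rule, 1.835% for peaks of at least 500 bp and 32.42% without the widest 1%. DAXX-specific peaks in the HIRA_DAXX list, 23.53%, became 10.04%, 5.882%, 17.6% with merging and 33.33% without chromosome 8. The cause was not tested. A stricter peak score and leaving out each replicate could not be run, since the lists hold no score and keep no replicate apart. No paired analysis was possible because the replicates of a condition were merged before deposit.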
